A study of Homo sapiens with 4 samples.

Results

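The genes described here are 35 genes of cell adhesion to the extracellular matrix, 20 subunits of integrins and 15 proteins of the focal adhesion, taken by their symbols from a table of 61806 genes. Each of the 35 symbols had a row in the table. The study sequenced the poly(A) RNA of 2 human bone cancer cell lines kept in suspension, with and without melatonin. JJ012 is a chondrosarcoma line, derived from a tumor of cartilage-forming cells, and 143B is an osteosarcoma line, derived from a tumor of bone-forming cells. For each line there was 1 control library, from untreated cells, and 1 library from cells given 1 mM melatonin for 72 h. All 4 libraries came from detached cells, so no adherent culture stood beside them, and each tumor type was represented by 1 established line. The comparison of melatonin with control asks which of these genes changed in level under melatonin while the cells had no substrate, and the comparison of the lines asks how the set differs between them. There were no replicate cultures. A difference within a line was therefore not set against the spread between cultures, and no test was made within a line.

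Integrins are receptors built of 1 alpha and 1 beta subunit that span the cell membrane and bind proteins of the matrix, and the pairing of subunits sets which ligand is bound. ITGB1 pairs with most of the alpha subunits, while ITGB3, ITGB5, ITGB6 and ITGB8 pair with ITGAV. Inside the cell, talin (TLN1, TLN2) and kindlin (FERMT1, FERMT2) bind the beta tail and activate the receptor, and vinculin (VCL), zyxin (ZYX) and tensins (TNS1, TNS3) connect it with actin. The pseudokinase ILK forms a complex with PINCH (LIMS1) and parvin (PARVA), and the scaffolds paxillin (PXN) and p130Cas (BCAR1) and the kinases FAK (PTK2) and PYK2 (PTK2B) carry the signal onward. Attached cells receive survival signals through this machinery, and death after loss of attachment is called anoikis.

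Levels are given as FPKM, the count of a gene scaled to the length of its exons and to the total count of the library, so that genes of different length can be set side by side. The libraries held between 15889564 and 19218343 counts. A floor of 3 counts, the limit that a count of 0 allows, was between 0.156 and 0.189 CPM, counts scaled to the library total alone. The log2 fold change was the log2 of (FPKM + 1) of one library over (FPKM + 1) of the other, which understates the change of genes of low level. A gene was compared where either of the 2 libraries reached 1 FPKM, and genes at 0.58 or more in absolute value were counted as higher or lower. For single genes the ratio of CPM is given with its exact (Clopper-Pearson) 95% interval, which covers counting error only. Several defining markers of mature cartilage and bone were at or near 0, and others were not. In all 4 libraries COL2A1 was at 0.04 FPKM or lower and ACAN at 0.11 FPKM or lower, and the osteoblast genes SP7 and DMP1 were at 0.12 FPKM or lower. RUNX2, which starts osteoblast differentiation, lay between 2.59 and 4.28 FPKM in the 4 libraries. SOX9, the master regulator of chondrocytes, was at 15.06 and 6.16 FPKM in JJ012 (control first, melatonin second, here and wherever a pair of values is given) and at 15.48 and 12.09 in 143B. Of 11 chondrocyte markers, 4 were compared in JJ012 and all 4 were lower after melatonin, and the summed level of the 11 was 26.47 and 9.38 FPKM (83.81 and 72.39 in 143B). The 9 osteoblast markers summed to 96.39 and 69.22 FPKM in JJ012, most of it from SPP1 (79.39 and 64.50), with COL1A1 at 10.92 and 0.77, and to 6.99 and 5.10 FPKM in 143B. In 143B, most of the chondrocyte sum came from markers other than SOX9, COL2A1 and ACAN. In the controls, the chondrocyte sum was higher in 143B and the osteoblast sum higher in JJ012, the reverse of the tumor types, but few genes carried these sums. Gene by gene, of 4 chondrocyte markers compared in the controls, 1 was higher and 1 lower in 143B, with a median log2 fold change of -0.04. Of 5 osteoblast markers compared, 0 were higher and 3 lower in 143B. Over all genes compared, 27.4% were higher and 41.3% lower in 143B. The part of these markers in the results on the members was not tested. Of 6 leukocyte markers, whose sum was 14.63 and 6.40 FPKM in JJ012 and 1.07 and 1.27 in 143B, PTPRC, which all leukocytes express, was at 0.14 FPKM or lower, while CD3E had 9.73 and 3.28 in JJ012.

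In the untreated cells, both lines expressed most of the set, but with different alpha subunits in the lead. At least 1 FPKM was reached by 29 of the 35 genes in some library and by 21 in every library. In the JJ012 control, ITGA5, the subunit of the fibronectin receptor, had the highest level of the alpha subunits with 214.63 FPKM (30454 counts), which was 53.9% of the summed alpha level. ITGA3, which pairs with ITGB1 to bind laminin, was the next with 103.93 FPKM. In the 143B control, ITGA2, a receptor subunit for collagen, had 126.16 FPKM (15828 counts) and ITGA5 had 124.87 FPKM (14649 counts), and these 2 levels lay side by side. ITGB1 had the highest level of the beta subunits in both lines, with 83.90 FPKM in the JJ012 control and 52.57 in the 143B control, followed by ITGB5 with 39.64 and 29.62 FPKM. The subunits that are best known from leukocytes were low, with ITGB2 at 0.62 FPKM or lower and ITGB7 at 0.12 FPKM or lower in every library. ITGA8, ITGB6 and ITGB7 had 10 counts or fewer in each library and could not be compared at this depth.

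**Figure D1:**
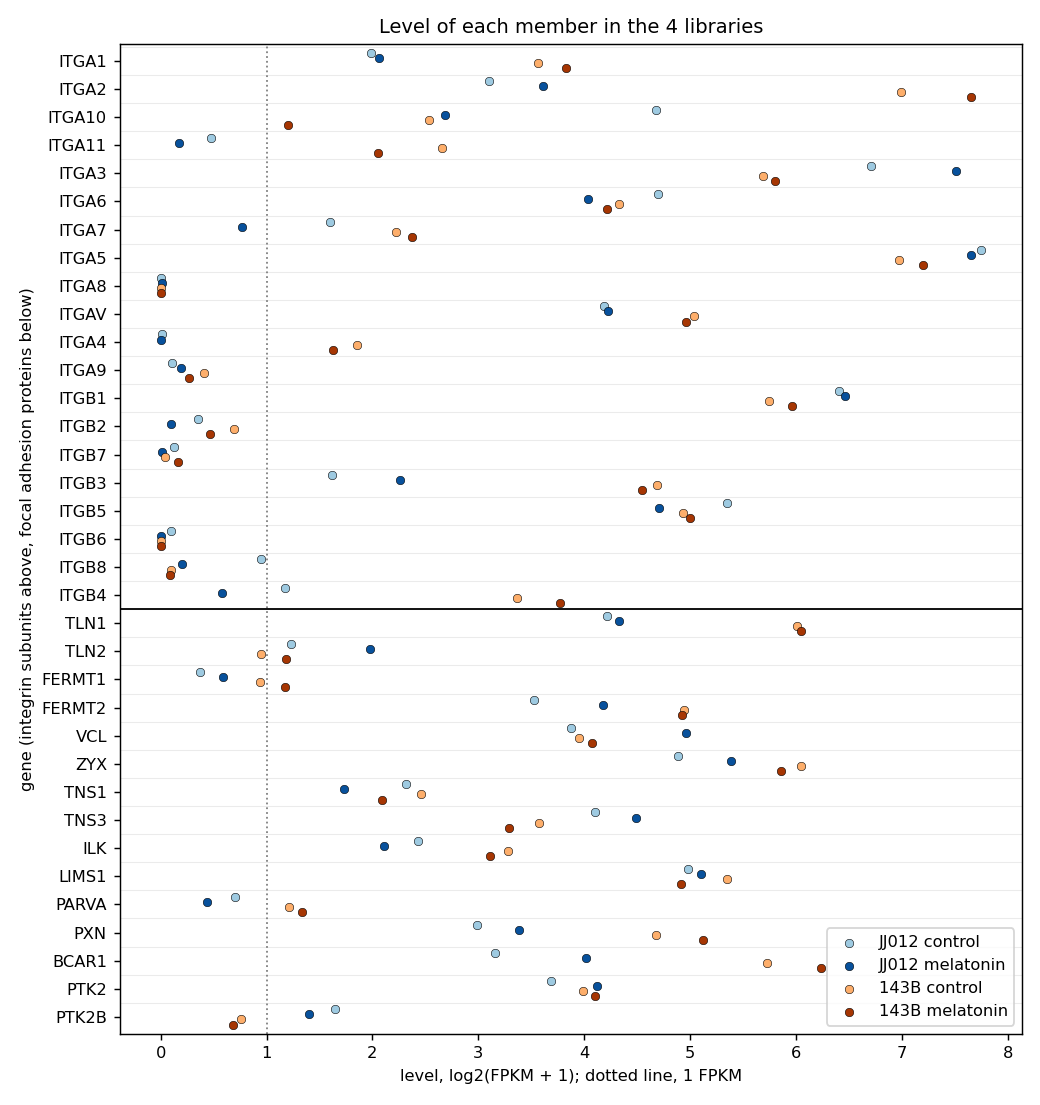
Level of the 35 genes in the 4 libraries as log2(FPKM + 1) on the horizontal axis, with 1 point per library and the dotted line at 1 FPKM. Integrin subunits stand above the line and focal adhesion proteins below it. ITGA5, ITGA3 and ITGB1 lay far to the right in all 4 libraries, ITGA2 lay there in the 143B libraries, and ITGA8 and ITGB6 lay at or near 0.

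Melatonin in JJ012 went with differences of both signs in the set, in which the integrin subunits and the focal adhesion proteins differed in their counts. Of the 25 members compared, 6 were higher and 6 lower after melatonin. Over all 15794 genes compared in JJ012, 38.2% were counted, 19.6% as higher and 18.6% as lower, so that 12 of 25 is not far from the background. The median log2 fold change of the members was 0.12, against 0.01 over all genes compared. In bulk RNA, fewer cells with a transcript and less of it per cell cannot be told apart. Among 12 integrin subunits, 2 were higher and 5 lower, with a median of -0.03. Among 13 focal adhesion proteins, 4 were higher and 1 lower, with a median of 0.39. All 12 counted members had counting intervals that left out 0, among 23 of the 25 members compared with such intervals.

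The direction in JJ012 depended on the scaling and on gene length. In TPM the median gene compared in JJ012 moved to 0.27, and 11 members were then higher and 3 lower, against 6 and 6 with the FPKM as deposited. Of all genes 50.3% were counted in TPM, 68.8% of these as higher, against 38.2% and 51.4% with the FPKM. ITGA6, ITGB5 and TNS1 no longer reached the threshold in TPM, with values of -0.41, -0.38 and -0.47. Long genes had higher fold changes in JJ012, with a Spearman correlation of 0.399 between fold change and exonic length over 11534 coding genes, which cannot be taken as independent. The members are long, with a median exonic length of 9072 bases against 5236.5 bases for the coding genes compared. Coding genes of 6000 to 10000 bases had a median of 0.22, and 25.2% of them were higher and 7.95% lower. With the running median over length subtracted, 3 members were higher and 6 lower, where 34.5% of all genes were counted. ITGA3, ITGB3, TLN2 and FERMT2 then lay between 0.41 and 0.49, under the threshold, and the median of the members was -0.18. The part of length in these values was not tested beyond this subtraction.

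**Figure D2:**
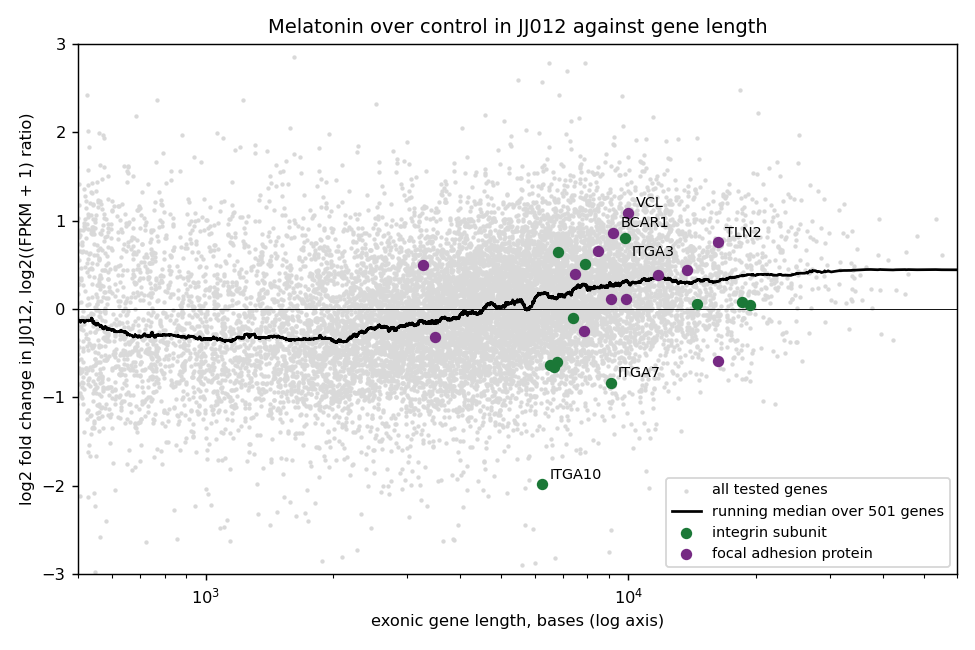
Log2 fold change in JJ012, melatonin over control, against exonic length in bases on a log axis. Grey points are genes compared in JJ012, of which 1490 of 15794 lie outside the axes, the black line is the running median over neighboring genes in length, and colored points are the 25 members. The line rises over most of the range of length, VCL, ZYX and BCAR1 lie above it by more than 0.58, and ITGA10 lies furthest below it of the members.

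The alpha subunits that bind collagen held the 1 difference that was counted with the same sign in both lines. ITGA10, a collagen receptor subunit known from cartilage, was at 24.54 FPKM (2944 counts) in untreated JJ012 and at 5.45 FPKM (549 counts) with melatonin. The 143B libraries gave 4.80 FPKM (476 counts) without and 1.30 FPKM (139 counts) with melatonin. Both treated libraries lay below the control of their own line, and the JJ012 control was the highest of the 4. Its log2 fold change was -1.99 in JJ012 and -1.33 in 143B. By CPM it was 4.50-fold lower in JJ012, with a log2 ratio of -2.17 (95% interval -2.31 to -2.04), and 3.70-fold lower in 143B, with -1.89 (-2.17 to -1.61). The ITGA10 gene lies on the minus strand of chromosome 1 from 145891208 to 145910111 (hg38), and 1.93% of its exonic bases are shared with an antisense transcript that had at most 1 count per library.

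The remaining collagen-binding subunits differed from ITGA10. ITGA2 had 7.57 FPKM (1148 counts) and 11.23 FPKM (1432 counts) in JJ012, where its log2 fold change was 0.51 and under the threshold, and 126.16 FPKM (15828 counts) and 199.84 FPKM (27085 counts) in 143B, a log2 fold change of 0.66. Its CPM ratio in 143B was 1.58-fold, with a log2 interval of 0.64 to 0.69, and ITGA2 was the 1 member counted as higher in 143B. With it, the summed level of the 4 collagen-binding subunits was 147.12 and 217.53 FPKM in 143B, whereas in JJ012 it was 35.46 and 19.98. ITGA11, a receptor subunit for fibrillar collagen, had 5.32 FPKM (919 counts) and 3.16 FPKM (590 counts) in 143B, a log2 fold change of -0.60. In JJ012 it had 82 and 23 counts, which is under 1 FPKM in both libraries. By CPM that was 2.99-fold lower (log2 interval -2.32 to -0.90). ITGA1 had 2.96 and 3.17 FPKM in JJ012 and 10.84 and 13.23 in 143B, with log2 fold changes of 0.07 and 0.27. A part of the ITGA1 exons (2.56%) is shared with PELO on the same strand.

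The windows from 250 bases before to 50 bases after the transcript start, taken from RefSeq (GRCh38.p14), are shown for the 3 collagen-binding subunits counted after melatonin and for VCL, which had the highest fold change of the set in JJ012. RefSeq windows were matched for 25 of the 35 members, 44 windows in all. They were searched on both strands for GGGCGG (the core of the SP1 site), GGAATG (TEAD), TGANTCA (AP-1), ACGTG (the core of the hypoxia response element) and the CArG box of SRF. Capitals mark GGGCGG and GGAATG on either strand, and the marked runs do not overlap. ITGA10 is at chr1:145910001-145910300 on the minus strand, ITGA2 at chr5:52989102-52989401 on the plus strand, ITGA11 at chr15:68432114-68432413 on the minus strand, and VCL at chr10:73997866-73998165 on the plus strand.
ITGA10: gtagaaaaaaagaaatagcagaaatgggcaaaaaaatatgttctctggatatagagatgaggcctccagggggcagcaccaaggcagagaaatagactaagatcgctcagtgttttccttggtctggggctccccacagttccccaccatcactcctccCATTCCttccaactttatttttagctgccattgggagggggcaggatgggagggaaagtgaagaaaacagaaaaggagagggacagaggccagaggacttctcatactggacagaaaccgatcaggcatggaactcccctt
ITGA2: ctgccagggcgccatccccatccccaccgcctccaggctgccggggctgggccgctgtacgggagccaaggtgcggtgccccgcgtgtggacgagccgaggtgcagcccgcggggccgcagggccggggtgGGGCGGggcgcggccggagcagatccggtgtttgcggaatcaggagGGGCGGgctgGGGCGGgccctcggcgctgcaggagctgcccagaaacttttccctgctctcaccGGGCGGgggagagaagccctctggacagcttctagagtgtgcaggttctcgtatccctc
ITGA11: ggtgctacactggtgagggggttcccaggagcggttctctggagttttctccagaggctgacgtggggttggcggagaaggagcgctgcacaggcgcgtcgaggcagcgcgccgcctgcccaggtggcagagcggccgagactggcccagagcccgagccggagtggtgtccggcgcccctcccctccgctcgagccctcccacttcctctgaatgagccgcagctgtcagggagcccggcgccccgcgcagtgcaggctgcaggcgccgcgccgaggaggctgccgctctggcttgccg
VCL: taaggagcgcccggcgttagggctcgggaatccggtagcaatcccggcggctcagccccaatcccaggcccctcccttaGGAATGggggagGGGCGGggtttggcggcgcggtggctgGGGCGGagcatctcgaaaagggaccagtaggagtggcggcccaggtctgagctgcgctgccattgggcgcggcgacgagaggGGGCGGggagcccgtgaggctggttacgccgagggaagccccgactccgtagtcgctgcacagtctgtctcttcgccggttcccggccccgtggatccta
The ITGA10 window stood apart from the other windows shown in its base composition. It had 48.7% GC and 2 CpG dinucleotides, against a median of 58.7% and 14 over 35116 promoter windows, and held no GGGCGG and 1 GGAATG. ITGA2 had 72.7% GC, 27 CpG and 4 matches to GGGCGG. ITGA11 had 72.0% GC and 29 CpG with neither of the marked motifs and 1 ACGTG. VCL had 69.3% GC, 30 CpG, 3 matches to GGGCGG and 1 to GGAATG. Among the member windows, 56.8% held GGGCGG, against 45.0% of all windows, and 15.9% held GGAATG, against 14.0%. TGANTCA was in 6.82% of the member windows and 7.71% of all windows, and ACGTG in 13.6% and 21.4%. The CArG box was in 1 member window and in 1.29% of all windows. A match says only that these letters occur in the window.

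The laminin-binding alpha subunits had values of both signs in JJ012. ITGA3 was at 103.93 FPKM (19578 counts) in untreated JJ012 and at 181.82 FPKM (28772 counts) with melatonin. Its log2 fold change was 0.80, and the CPM ratio was 1.75-fold. After melatonin it was close to ITGA5, and its share of the summed alpha level was 41.7%, against 26.1% in the control. In 143B, ITGA3 had 50.45 and 54.94 FPKM, a log2 fold change of 0.12. ITGA6, which pairs with ITGB1 or ITGB4, had 24.91 FPKM (3197 counts) and 15.39 FPKM (1659 counts) in JJ012, with a log2 fold change of -0.66, and 19.09 and 17.58 FPKM in 143B, a log2 fold change of -0.11. ITGA7, a laminin receptor subunit best known from muscle, had 2.03 FPKM (355 counts) and 0.70 FPKM (103 counts) in JJ012. Its log2 fold change was -0.83, and its CPM was 2.90-fold lower (log2 interval -1.86 to -1.21). The 143B libraries gave 3.67 and 4.20 FPKM, a log2 fold change of 0.16. The summed level of the 3 subunits was 130.87 FPKM and 197.91 FPKM in JJ012, with ITGA3 the greater part, and 73.21 and 76.72 FPKM in 143B.

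ITGA5 and ITGAV, alpha subunits that bind RGD-containing ligands such as fibronectin and vitronectin, had values near 0 in both lines. ITGA5 had 214.63 and 199.87 FPKM in JJ012, with a log2 fold change of -0.10, and 124.87 and 146.53 FPKM in 143B, a log2 fold change of 0.23. ITGAV had 17.20 and 17.72 FPKM in JJ012 and 31.91 and 30.09 in 143B, with log2 fold changes of 0.04 and -0.08. With counting error alone, the interval of ITGAV in JJ012 included 0 (-0.01 to 0.10), and that of ITGA5 left it out in both lines. ITGA4, which pairs with ITGB1 or ITGB7 and binds VCAM1 and fibronectin, had 2 and 0 counts in JJ012. In 143B ITGA4 had 2.62 FPKM (444 counts) and 2.09 FPKM (383 counts), a log2 fold change of -0.23. ITGA9 stayed at 0.33 FPKM or lower in every library.

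Of the beta subunits, ITGB1 had values near 0 in both lines and the partners of ITGAV differed from each other in JJ012. ITGB1 had 83.90 and 87.47 FPKM in JJ012, with a log2 fold change of 0.06, and 52.57 and 61.40 FPKM in 143B, a log2 fold change of 0.22. ITGB3, of the vitronectin receptor, had 2.07 FPKM (272 counts) and 3.80 FPKM (419 counts) in JJ012, where its log2 fold change was 0.65 and its CPM ratio 1.83-fold. In 143B the level was 24.85 FPKM (2696 counts) and 22.38 FPKM (2623 counts), a log2 fold change of -0.15. The ITGB3 exons overlap on the same strand, over 51.6% of their bases, with another gene model that had 8 counts or fewer per library. ITGB5 had 39.64 and 25.11 FPKM in JJ012, with a log2 fold change of -0.64, and 29.62 and 31.06 FPKM in 143B, a log2 fold change of 0.07. ITGB4, the subunit of hemidesmosomes, had 1.26 FPKM (164 counts) and 0.49 FPKM (53 counts) in JJ012, where its log2 fold change was -0.60 and its CPM 2.60-fold lower. In 143B ITGB4 had 9.30 FPKM (999 counts) and 12.68 FPKM (1471 counts), a log2 fold change of 0.41 and under the threshold. ITGB8, whose pair with ITGAV activates latent TGF-beta, had 270 and 36 counts in JJ012, which is 0.93 and 0.15 FPKM and under the filter, and was 6.30-fold lower by CPM (log2 interval -3.20 to -2.15). In 143B ITGB8 had 18 and 15 counts.

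Among the proteins that activate integrins and link them to actin, VCL, which strengthens the link to actin under tension, had the highest fold change in JJ012. Its level was 13.69 FPKM (2628 counts) in untreated JJ012 and 30.25 FPKM (4880 counts) with melatonin, a log2 fold change of 1.09, 2.21-fold higher by CPM with a log2 interval of 1.08 to 1.21. In 143B VCL had 14.44 FPKM (2293 counts) and 15.84 FPKM (2717 counts), a log2 fold change of 0.13. The treated JJ012 library was thus the high one, and the remaining 3 lay close together. A share of 11.1% of the VCL exons overlaps AP3M1 on the opposite strand, which had 1115 and 1247 counts in JJ012. With the trend over length subtracted, VCL stayed at 0.79 in JJ012. TLN2, the talin of lower level in all libraries, had 1.34 FPKM (419 counts) and 2.95 FPKM (775 counts) in JJ012, with a log2 fold change of 0.76, and 0.93 and 1.27 FPKM in 143B, a log2 fold change of 0.23. TLN1 had 17.58 and 19.14 FPKM in JJ012 and 63.60 and 65.01 in 143B, with log2 fold changes of 0.12 and 0.03. FERMT2 had 10.50 and 17.15 FPKM in JJ012, with a log2 fold change of 0.66, and 29.67 and 29.43 FPKM in 143B, a log2 fold change of -0.01. FERMT1, the epithelial kindlin, stayed at 1.26 FPKM or lower. TNS1 was the single focal adhesion protein counted as lower in JJ012, with 4.00 and 2.32 FPKM and a log2 fold change of -0.59. It was also lower in 143B, with 4.51 and 3.27 FPKM and a log2 fold change of -0.37, under the threshold. ZYX had 28.64 and 40.92 FPKM in JJ012 and 65.13 and 57.12 in 143B, with log2 fold changes of 0.50 and -0.19, and TNS3 had log2 fold changes of 0.38 and -0.28.

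The scaffolds had values above 0 in both lines, of which 3 of 4 stayed under the threshold. BCAR1 had 7.91 and 15.24 FPKM in JJ012, where its log2 fold change was 0.87 and its CPM ratio 1.93-fold. In 143B BCAR1 had 51.95 and 74.58 FPKM, a log2 fold change of 0.51. PXN had 6.95 and 9.44 FPKM in JJ012 and 24.66 and 33.74 FPKM in 143B, with log2 fold changes of 0.39 and 0.44. Neither kinase reached the threshold. PTK2 had 11.86 and 16.46 FPKM in JJ012 and 14.89 and 16.23 in 143B, with log2 fold changes of 0.44 and 0.12, and PTK2B had 2.13 and 1.64 FPKM in JJ012, with a log2 fold change of -0.25, and 0.69 FPKM or lower in 143B. In the ILK complex, LIMS1 had 30.62 and 33.29 FPKM in JJ012 and 39.76 and 29.08 in 143B, with log2 fold changes of 0.12 and -0.44. Near-identical copies of LIMS1 exist in the genome, and reads could have been split between them. ILK had 4.38 and 3.31 FPKM in JJ012 and 8.74 and 7.63 in 143B, with log2 fold changes of -0.32 and -0.17. Of the ILK exons, 68.1% overlap TAF10 on the opposite strand, and without a stated strand setting the reads of both cannot be told apart. PARVA was at 1.52 FPKM or lower in every library.

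**Figure D3:**
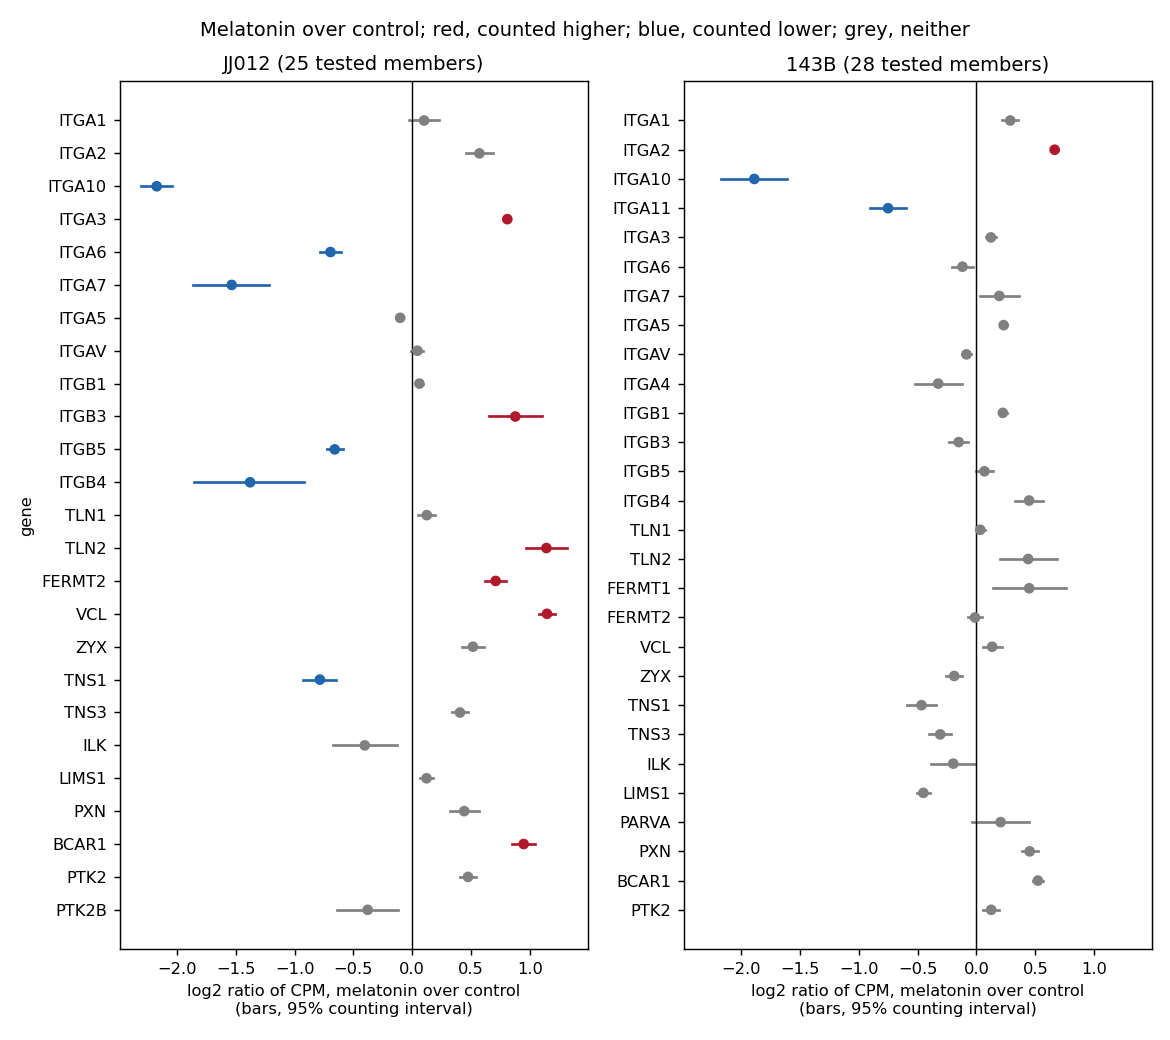
Log2 ratio of CPM, melatonin over control, for the members compared in JJ012 (left, 25) and 143B (right, 28). Points are the ratio of 1 library over 1 library and bars the exact 95% counting interval, which holds no culture spread. Red and blue mark the members counted as higher and lower at 0.58 on the FPKM scale. In JJ012 the points spread from ITGA10 at -2.17 to VCL at 1.14, and in 143B most lie near 0 with ITGA10 at -1.89.

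In 143B, the share of members counted was close to that of all genes. Of the 28 members compared, 1 was higher (ITGA2) and 2 were lower (ITGA10 and ITGA11), against 12.7% of the 14135 genes compared in 143B, 6.09% higher and 6.65% lower. The members counted were 10.7%, and of the 10878 protein-coding genes compared 6.09% were counted in either direction. The median of the members was 0.09, against 0.03 over all genes compared. None of the 14 focal adhesion proteins compared in 143B reached the threshold, and their values lay between -0.44 (LIMS1) and 0.51 (BCAR1). The 3 counted members were all collagen-binding alpha subunits. The counting intervals of all 3 left out 0, among 24 of the 28 members compared with such intervals. Summed over the 15 focal adhesion proteins, the level was 332.11 FPKM in the control and 345.39 after melatonin, whereas in JJ012 it was 156.73 and 214.42.

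The lines were then set side by side. Of 24 members compared in both lines, 10 had values above 0 in both, 4 below 0 in both, and 10 had opposite signs. Over these 24 genes, which cannot be taken as independent, Pearson r between the lines was 0.566 and Spearman rho 0.29. The plot of the lines against each other shows ITGA10 far from the rest, and rho, which uses ranks, gives that distance no weight.

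**Figure D4:**
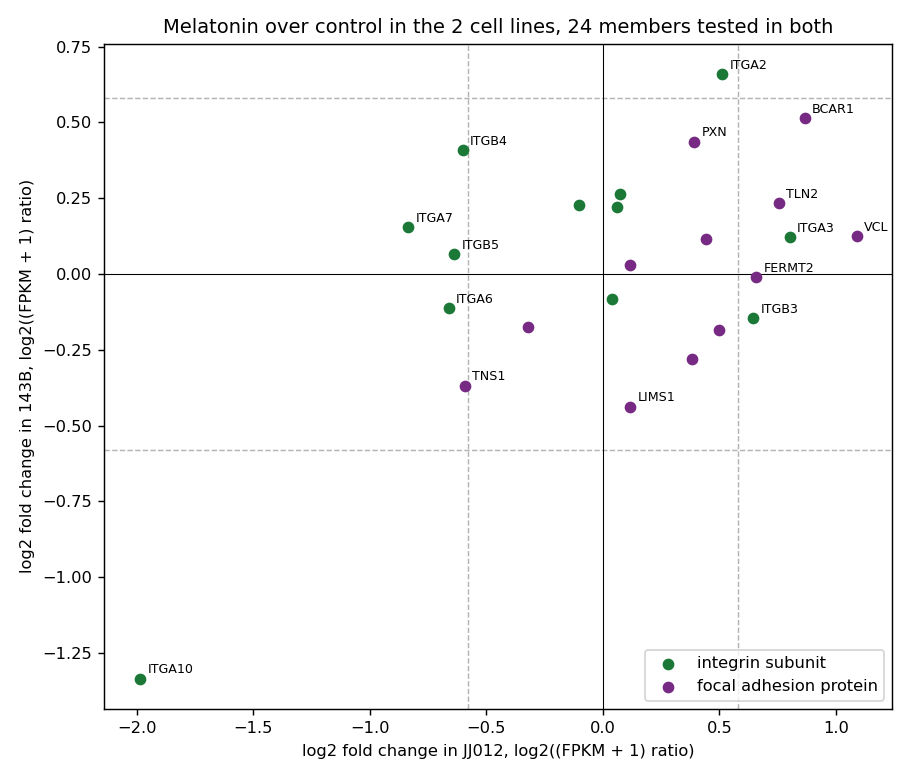
Log2 fold change after melatonin in JJ012 (horizontal) and 143B (vertical) for the 24 members compared in both lines, 1 point per gene, with dashed lines at the threshold of 0.58. ITGA10 lies at -1.99 and -1.33, and the remaining points lie within the dashed lines of 143B apart from ITGA2 at 0.66.

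A response common to both lines was tested with edgeR's quasi-likelihood test on the counts of all 4 libraries, with treatment and line as terms. The test had 1 residual degree of freedom. It set the shared change against the part that differed between the lines, and not against the spread between cultures. Of 32 members tested, 1 passed at an adjusted p under 0.05, against 0.352% of the 19301 genes tested. That member was ITGA10, which fell in both lines, with a log2 fold change of -2.04 and a Benjamini-Hochberg adjusted p of 0.00052 (edgeR). DESeq2 gave it an adjusted p of 0.00102, and edgeR with other size factors or without the filter gave 0.000185 and 0.00245. At an unadjusted p under 0.05 there were 4 members (3 by DESeq2 or with its size factors), and 1139 of the 19301 genes. Besides ITGA10 these were ITGA11, with a log2 fold change of -1.11 and an edgeR adjusted p of 0.427, ITGB8, with -1.67 and 0.451, and TLN2, with 0.79 and 0.84. A difference between the lines in their response could not be tested, since that term would take up the last degree of freedom.

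The untreated lines were compared gene by gene. Of 28 members compared in the control libraries, 14 were higher in 143B and 5 lower, where 68.7% of all 16929 genes compared were counted, 27.4% as higher in 143B and 41.3% as lower. The share of members counted, 67.9%, was that of genes in general, while the counts by direction leaned toward 143B. The median of the members was 0.57 and that of all genes -0.29. Long genes tended to lie higher in 143B. The Spearman correlation between fold change and exonic length was 0.296 over 12329 coding genes, which cannot be taken as independent. Of coding genes of 6000 to 10000 bases, 29.8% were higher and 28.5% lower. With the running median over length subtracted, 12 members were higher and 6 lower, with a median of 0.40. Of all genes 62.6% were then counted, 52.3% of these as higher. Centred on the median gene, 17 members were higher in 143B and 3 lower, and TPM gave the same counts. Of all genes 67.0% were counted when centred, 51.4% of these as higher, and 73.4% in TPM, 50.7% of these as higher. On the main scale 39.9% of the counted genes were higher. ITGA5 and ITGB1, lower in 143B by the main scale at -0.78 and -0.66, were at -0.40 and -0.29 in TPM and so under the threshold. All 19 members counted on the main scale had counting intervals without 0, among 27 of the 28 members compared with such intervals.

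Among members with at least 5 FPKM in either control, ITGA2 had the largest difference toward 143B on the FPKM scale, 7.57 FPKM in the JJ012 control and 126.16 in the 143B control, 16.7-fold higher by CPM. ITGB3 was at 2.07 and 24.85 FPKM (12.0-fold by CPM), BCAR1 at 7.91 and 51.95 (6.57-fold), ITGB4 at 1.26 and 9.30 (7.37-fold) and ITGA11 at 0.39 and 5.32 (13.6-fold). ITGA4, under that level with 2 counts in the JJ012 control and 444 in the 143B control, had the highest ratio of all members by CPM, 8.07 on the log2 scale with a counting interval of 6.21 to 11.12. The lower members in 143B were led by ITGA10, at 24.54 and 4.80 FPKM (5.11-fold lower by CPM), and ITGA3, at 103.93 and 50.45 (2.06-fold lower). PTK2B, under 5 FPKM in both, was at 2.13 and 0.69 FPKM (3.10-fold lower). The next were ITGA5, ITGB1 and, under the threshold, TNS3 at 16.21 and 10.90 FPKM. VCL, at 13.69 and 14.44 FPKM, had an interval that included 0. PTK2, at 11.86 and 14.89 FPKM, was also under the threshold, whereas TLN1, at 17.58 and 63.60 FPKM, had a log2 fold change of 1.80.

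**Figure D5:**
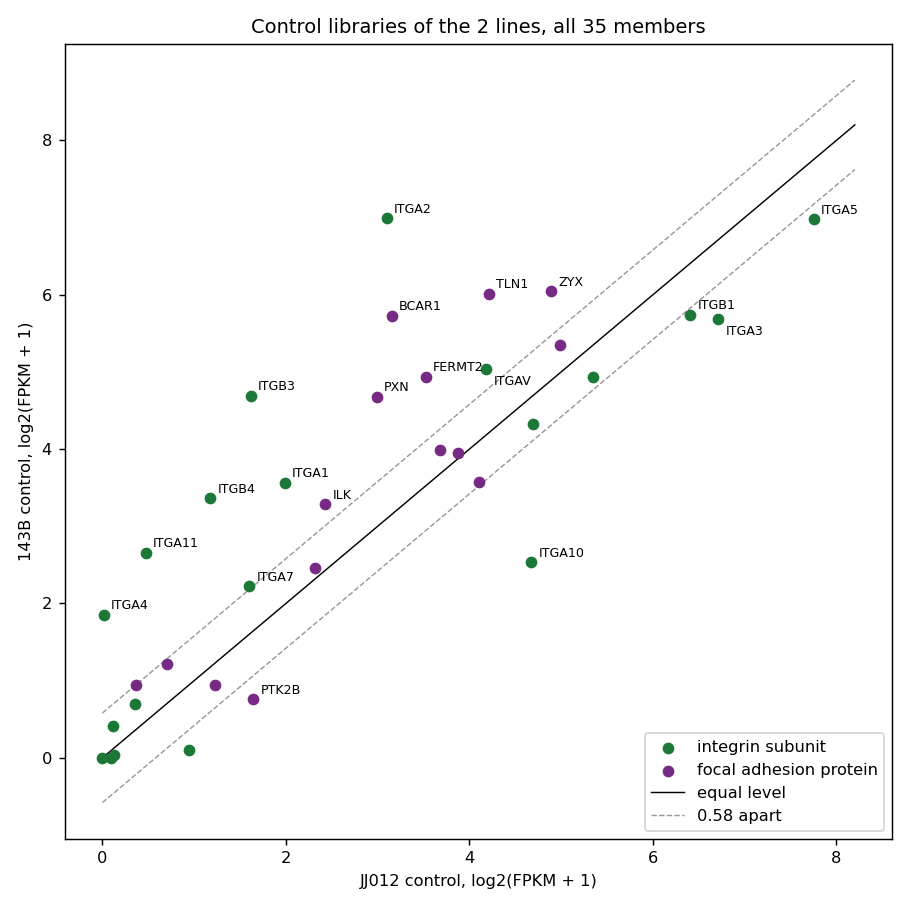
Level of the 35 members in the JJ012 control (horizontal) and the 143B control (vertical) as log2(FPKM + 1), with the solid line at equal level and dashed lines 0.58 apart from it. Labelled genes are the 19 members counted. ITGA2, ITGB3 and BCAR1 lie far above the line, and ITGA10 far below it.

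Over control and melatonin libraries together, edgeR called 21 of 32 members different between the lines, 17 higher and 4 lower in 143B, against 47.9% of 19301 genes, 20.4% higher and 27.5% lower. Each line had 2 libraries here, which differ in treatment. The fit was that of the common response, so these p-values too were not set against the spread between cultures. The 4 lower members were ITGB8 (log2 -2.36, edgeR adjusted p 0.000888), ITGA10 (log2 -2.02, adjusted p 2.87e-06), PTK2B (log2 -1.33, adjusted p 0.0122) and ITGA3 (log2 -1.19, adjusted p 0.0193). Among the 17 higher in 143B, ITGA4 had a log2 difference of 8.87, ITGA11 4.33, ITGA2 4.30, ITGB4 3.95 and ITGB3 3.26, with edgeR adjusted p-values of 3.04e-12 or lower. The JJ012 libraries held at most 2 counts of ITGA4, so its fitted size depends on the prior count. ITGB1 (log2 -0.40, edgeR adjusted p 0.475) and ITGA5 (log2 -0.42, adjusted p 0.451) did not pass. DESeq2 called 18 members, 16 higher and 2 lower.

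The ligands and neighbors of the set were taken from lists and from the KEGG pathway name Focal adhesion in the table, with the members left out. Of 16 matrix ligands compared in JJ012, 2 were higher after melatonin and 8 lower, where 19.6% of all genes were higher and 18.6% lower. FN1, which encodes fibronectin, the ligand of ITGA5, had 799.64 and 457.91 FPKM in JJ012 and 69.52 and 34.76 in 143B, with log2 fold changes of -0.80 and -0.98. The fibrillar collagens COL1A2, COL3A1 and COL1A1, ligands of the collagen-binding subunits, had 12.48, 10.05 and 10.92 FPKM in the JJ012 control and 0.14, 0.09 and 0.77 after melatonin. COL1A1, COL1A2 and COL3A1 were at 0.49 FPKM or lower in 143B. CCN1, a matricellular ligand, was higher in JJ012, with 1.83 and 6.13 FPKM. In 143B, 2 ligands were higher and 4 lower of 13 compared, where 6.09% of all genes were higher and 6.65% lower. LAMB3 and LAMA3, laminin chains, had 51.23 and 27.46 FPKM and 10.78 and 6.09 FPKM in 143B. LAMC1, a further laminin chain, was higher there, with 44.67 and 69.17 FPKM and a log2 fold change of 0.62.

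Of 14 membrane partners of integrins compared in JJ012, such as tetraspanins and syndecans, 2 were higher and 8 lower. Over all genes compared in JJ012, 19.6% were higher and 18.6% lower. SLC3A2, the CD98 heavy chain, which binds beta tails, had 10.64 and 33.93 FPKM and SDC4 17.28 and 36.65, while CD63 had 404.02 and 135.75, CAV1 95.18 and 36.74, and CD82 24.21 and 10.54. With the trend over length subtracted, SLC3A2 was at 1.41, SDC4 at 1.25, CD63 at -1.35, CAV1 at -1.25 and CD82 at -1.09 in JJ012. In 143B, 1 of 15 was higher, the syndecan SDC2 (14.72 and 22.74 FPKM), and 1 lower, DDR1 (37.87 and 23.82 FPKM). Over all genes compared in 143B, 6.09% were higher and 6.65% lower. The same shares of each line stand against the counts of adhesome proteins and further alpha subunits that follow. Among 45 further adhesome proteins compared in JJ012, 8 were higher and 5 lower. The higher ones were led by DAB2 (26.33 and 79.00 FPKM), an endocytic adaptor that binds beta tails, LPP (2.49 and 7.23), a relative of zyxin, and PDLIM5 (11.29 and 23.68). FBLIM1 (6.10 and 2.79 FPKM) and TNS2 (6.58 and 3.24) were among the lower ones. In 143B none of 45 was higher and 2 were lower, LPXN, the paxillin relative leupaxin (13.04 and 6.64 FPKM), and TRIP6, a further zyxin relative (6.14 and 3.49). LPXN was also lower in JJ012 (16.58 and 8.84 FPKM). Of 5 leukocyte or platelet integrin alpha subunits compared in JJ012, 1 was higher and 3 lower, among them ITGA2B, with 7.84 and 0.63 FPKM. In the KEGG pathway without the members, 27 of 174 genes were higher and 35 lower in JJ012, and 5 of 175 higher and 5 lower in 143B, which is 35.6% and 5.71% counted, against 33.9% and 6.09% of the protein-coding genes compared.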

How the data were processed

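RNA of 4 suspension libraries was measured, 1 per line and condition, grouped by the sample labels. A suffix T in the column names was taken to mean melatonin. Deposited by the authors were raw whole-number counts per gene, and FPKM, which are these counts per exonic length and library total (recomputed here to within 0.005). The submitters' processing notes name cutadapt 1.9.1, HISAT2 2.2.1, HTSeq 0.6.1, DESeq2 and the build hg38, and parameters and strand setting are not given in the sources used here. Of the 35 members, 14 had the positions of GENCODE 29 exactly and all 35 overlapped their locus there. The shares of overlapping exons are those of GENCODE 29. The members, lists and tests were chosen with earlier results of these data known.

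Fold changes used FPKM with a pseudocount of 1, a filter of 1 FPKM and a threshold of 0.58, the fold threshold of the study. Counts were normalized by TMM and tested with edgeR 4.0.16 (filterByExpr, glmQLFit, ~ treatment + line, Benjamini-Hochberg over all genes tested), with DESeq2 1.42.0 as an alternative, in R 4.3.3 and Python 3.11.15 (numpy 2.4.6, scipy 1.17.1, pandas 2.3.3, matplotlib 3.10.9). Totals of 15889564 to 19218343 counts limit genes at low counts, and intervals and floors hold counting error only, as PCR copies of a molecule are counted more than once. The procedures were tested on simulated counts. Alternatives were a pseudocount of 0.1, no filter, a filter of 5 FPKM, TPM, CPM, centring on the median gene, subtraction of the running median over length, a threshold of 1, and, for the tests, DESeq2, its size factors in edgeR and no filter.

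All 35 members were accounted for. Values in each library were given for members counted after melatonin in either line and for the members of highest level in each role, and between lines for the 5 largest differences each way among members with at least 5 FPKM. Of the other lists, up to 3 genes with the largest value each way per line were named among those with at least 5 FPKM. Genes of the KEGG pathway were named only where another list also held them. ITGA4, FN1 in JJ012, LPXN in JJ012 and the marker genes were named after their values were seen. Protein sequences were not used here.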

Additional observations from a re-analysis of the deposited data

Results flagged for a closer look

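SDC2, the proteoglycan syndecan 2, a co-receptor of integrins, was the 1 gene of the members and the written lists here that was counted in opposite directions in the lines. It had 44.52 FPKM in the JJ012 control and 21.93 after melatonin, a log2 fold change of -0.99, and 14.72 FPKM in the 143B control and 22.74 after melatonin, a log2 fold change of 0.60. With the trend over length subtracted, SDC2 was at -0.96 in JJ012 and at 0.53 in 143B, the latter under the threshold. With 1 library per condition, the difference between the lines was not tested.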

How the results depend on the processing

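With a filter of 5 FPKM, 7 members were counted after melatonin in JJ012 in place of 12, since fewer were compared. Over all genes, 39.7% were counted in JJ012 with that filter. With a threshold of 1, 2 members were counted in JJ012 (VCL and ITGA10) and 1 in 143B (ITGA10) in place of 3. That threshold counted 14.7% of all genes in JJ012 and 4.45% in 143B. The remaining alternatives gave between 9 and 14 members in JJ012, 2 or 3 in 143B, between 13 and 21 for the lines in the control or melatonin libraries, and 18 to 21 by the tests on counts. No member of those counted reversed its sign in any alternative. Of 91 repeated values of the counted members in JJ012, 17 were no longer past the threshold, of 23 in 143B 2, and of 168 between the lines 15. DESeq2 called 6 genes of all genes tested for the common response and edgeR 68, and for the lines 6693 and 9248. Leaving out 1 library at a time left no residual degrees of freedom and so no test. The median of the members then ranged from 0.796 to 1.169 for 143B over JJ012 and from -0.023 to 0.103 for melatonin over control. No paired analysis was possible because the labels give no replicate numbers and each group is 1 library, beyond the tests on counts, in which line is a term and melatonin is compared with control within each line. Depth limits genes of few counts, such as ITGB6, with 8 counts in the JJ012 control and 0 in the remaining libraries.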
